A study of Mus musculus with 26 samples.

Results

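The 10 genes described here encode proteins of the acrosome, the secretory cap on the sperm head, or of sperm-egg fusion. They are Acr, Acrbp, Acrv1, Spaca1, Spaca3, Spaca4, Spaca7, Zpbp, Zpbp2 and Izumo1. This fixed set was chosen by name, with earlier results of these data known. All 10 are among the 21275 genes of the testis table. Expression was measured by RNA-seq in 4 mouse testis libraries, 2 from wildtype animals and 2 from animals with a conditional knockout (cKO) of Tex10. All 4 carry the C57BL/6N strain label and were untreated. Age, the promoter that drives the recombinase and whether each library is a separate animal are not given in the sources used here, so p-values measure the spread between these libraries only. The other 22 of 26 libraries in the series come from cells in culture, all of strain 129Sv/J, and are used only to show where the 10 genes were detected. These are EpiLCs (epiblast-like) and the PGCLCs (germ cell-like) derived from them, in 2 experiments. In the first the EpiLCs were untreated, and PGCLCs at days 2 and 4 had DMSO or 500 nM dTAG13, a degrader. In the second, EpiLCs and PGCLCs at days 2, 4 and 6 carried an empty vector or came from 2 clones overexpressing Tex10.

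The acrosome is built from the Golgi apparatus in round spermatids, the haploid cells that follow meiosis. It stores proteases, hyaluronidases and binding proteins that are released or exposed when the sperm meets the egg coat, the zona pellucida. Transcripts of these proteins accumulate after meiosis under activators such as CREM, which binds the cAMP response element, and RFX2, which binds the X box. The question of the comparison was how loss of Tex10 in the mouse affects this programme.

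The stretches upstream of the start sites are shown first, for the 6 of the 10 genes where a searched motif lay within 150 bases before the start. RefSeq promoters on GRCm38.p6 matched 9 of the 10 symbols, all but Acr, with 11 start sites. The motifs searched on both strands were TGACGTCA, the full cAMP response element; TGACG, its shorter core, which the full element contains; and CCATGG and GTTGCC, parts of the X box. Capitals mark a match, CGTCA being TGACG on the other strand. The lines run from the 150th base before the start to the base before it, and Spaca1 and Spaca3 are each shown for 1 of 2 annotated starts.
Izumo1 (chr7:45621661-45621810, plus strand): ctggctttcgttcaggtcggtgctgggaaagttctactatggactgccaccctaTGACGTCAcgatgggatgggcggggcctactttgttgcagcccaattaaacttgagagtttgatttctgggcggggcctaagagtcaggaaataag
Acrbp (chr6:125049777-125049926, plus strand): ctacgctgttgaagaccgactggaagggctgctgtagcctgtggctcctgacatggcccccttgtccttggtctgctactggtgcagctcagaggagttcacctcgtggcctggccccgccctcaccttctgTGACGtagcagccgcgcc
Spaca1 (chr4:34050066-34050215, minus strand): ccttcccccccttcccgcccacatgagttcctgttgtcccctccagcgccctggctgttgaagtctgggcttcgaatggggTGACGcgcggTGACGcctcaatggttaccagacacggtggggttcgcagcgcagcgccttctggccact
Spaca3 (chr11:80858239-80858388, plus strand): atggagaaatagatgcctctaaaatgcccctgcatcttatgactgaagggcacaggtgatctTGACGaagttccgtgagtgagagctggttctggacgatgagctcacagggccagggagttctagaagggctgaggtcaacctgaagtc
Zpbp2 (chr11:98550947-98551096, plus strand): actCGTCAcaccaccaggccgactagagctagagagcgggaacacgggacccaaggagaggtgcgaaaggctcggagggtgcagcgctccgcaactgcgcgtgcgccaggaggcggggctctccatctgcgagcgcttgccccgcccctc
Acrv1 (chr9:36693070-36693219, plus strand): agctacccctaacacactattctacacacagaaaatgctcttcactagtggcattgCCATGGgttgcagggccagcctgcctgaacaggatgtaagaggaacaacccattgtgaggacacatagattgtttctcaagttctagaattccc

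The core TGACG was found in 7 of the 11 stretches, which belong to 5 of the 9 genes, against 13.3% of 32851 stretches of the same length in the RefSeq promoter table. The 2 stretches of Spaca1 overlap, as do those of Spaca3, so the same sites were counted for both starts. Izumo1 held the full element TGACGTCA, starting 96 bases before its start site, which 1.36% of stretches held. Spaca1 held TGACG at 2 places in the printed stretch, and Acrbp held it 18 bases before its start. CCATGG was found for Acrv1, against 4.22% of stretches, and GTTGCC for none of the genes in this stretch, against 6.64%. In a wider window of 300 bases around the start, TGACG was again in 7 of 11 promoters and 5 genes, against 20.8% of all promoters. The full element was in 1.79% of all promoters there. CCATGG was then found for Acrv1 and Spaca4 (9.56% of all promoters) and GTTGCC for Acrbp (12.5%). These are matches of letters, not measured binding, and any link to the changes below was not tested.

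Depth was similar in the 4 testis libraries, at between 6058987 and 7272313 reads in the table. Values are the deposited TMM-scaled CPM, that is reads relative to a library size scaled by the trimmed mean of M values, and 1 read was worth between 0.127 and 0.171 of this unit. Tex10 was read first as a check of the labels. Wildtype 1 and 2 gave 79.1 and 44.1, and cKO 1 and 2 gave 29.8 and 27.3, a log2 fold change of -1.02 (standard error 0.214, limma adjusted p 0.00318). The groups did not overlap, but the size of the change rested on wildtype 1, without which it was -0.61 (limma adjusted p 0.0189). Without limma's variance trend Tex10 was not called (limma adjusted p 0.0782). Testis identity was plain from spermatid transcripts such as Tnp2, a transition protein of sperm chromatin, at 7583 and 7971 in wildtype and 5452 and 5485 in cKO.

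All 10 acrosome genes fell in the cKO testis, by between 20.9% and 55.8% of the wildtype mean. On the log2(value + 1) scale, used for every limma fold change, the changes ran from -1.01 for Spaca7 to -0.34 for Spaca4, with a median of -0.45 against 0.01 over the 20658 genes tested. Each was called in limma, at an adjusted p under 0.05 with the adjustment made over every tested gene. By this rule 29.1% of all genes tested were called in either direction and 13.1% were called lower, and the 10 of 10 stand against the latter share. Since the 10 genes were chosen with earlier results known, this contrast is a description and not a test. In each of the 10 genes both cKO libraries lay below both wildtype libraries on the TMM scale, which was so for 31.5% of all genes tested. A bulk testis sample cannot tell fewer spermatids from less of these transcripts per spermatid.

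**Figure D1:**
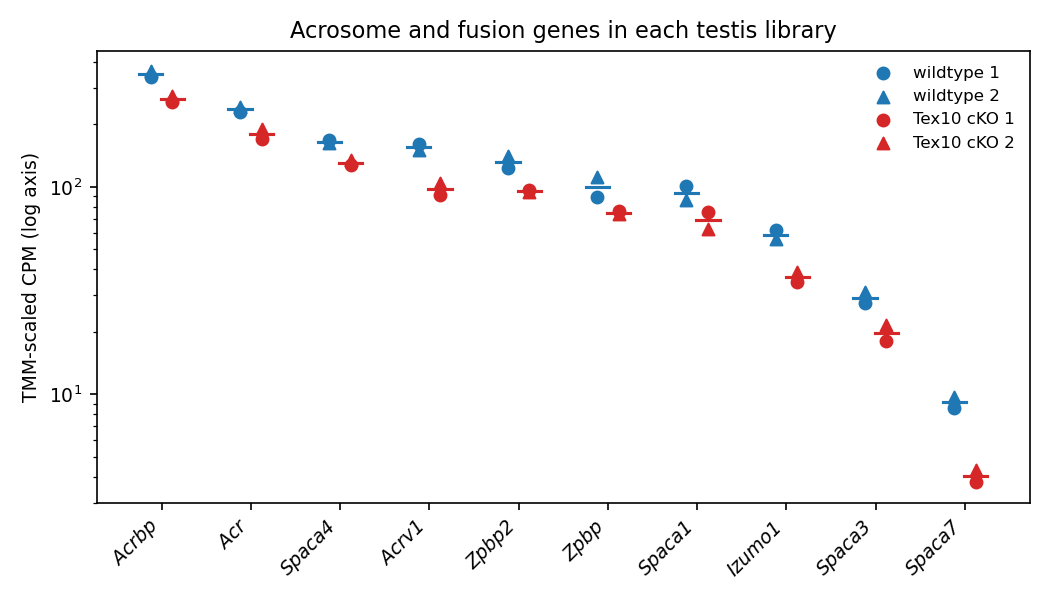
TMM-scaled CPM (log axis) of the 10 genes in each of the 4 testis libraries, with wildtype in blue, cKO in red, circles for library 1, triangles for library 2 and bars for the group means. In every gene the 2 red points lie below the 2 blue points, from Acrbp at the top to Spaca7, whose wildtype mean was 9.15.

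Acr encodes acrosin, the trypsin-like protease that is stored in the acrosome as proacrosin. It was at 230.4 and 241.9 in wildtype and at 170.1 and 189.2 in cKO. The lowest wildtype library stood 41.2 units above the highest cKO library, more than the distance between libraries of a group. The change was -0.39 on the log2 scale (standard error 0.117, limma adjusted p 0.0212).

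Acrbp encodes the proacrosin binding protein, which holds proacrosin in its inactive form during packaging. It had the highest value of the 10, at 339.5 and 360.7 in wildtype and 257.3 and 272.9 in cKO. Its change of -0.40 (standard error 0.114, limma adjusted p 0.0173) was close to that of Acr, the enzyme it binds. After quantile normalization Acr was at -0.11 (limma adjusted p 0.452) and Acrbp at -0.041 (limma adjusted p 0.787). Neither was called without cKO 1, with Acr at -0.32 and Acrbp at -0.36, or without cKO 2, with Acr at -0.47 and Acrbp at -0.44. Acr made up between 17.6% and 17.9% of the summed value of the 10 genes in wildtype and between 17.9% and 19.0% in cKO. Acrbp made up between 25.9% and 26.7% in wildtype and between 27.1% and 27.4% in cKO, higher in both cKO libraries.

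Acrv1 encodes SP-10, a protein of the acrosomal matrix. It was at 160.8 and 150.7 in wildtype and at 91.5 and 104.2 in cKO, with a gap of 46.5 units between the groups. Its log2 fold change of -0.67 had the lowest limma adjusted p of the 10, 0.00151 (standard error 0.123). Its share of the summed value was between 11.1% and 12.3% in wildtype and between 9.62% and 10.5% in cKO.

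Spaca3 encodes a lysozyme-like protein of the acrosomal matrix. It was at 27.6 and 30.9 in wildtype and at 18.1 and 21.5 in cKO, a log2 fold change of -0.54 (standard error 0.179, limma adjusted p 0.035). Spaca7 encodes a protein released from the acrosome during its exocytosis. It was at 8.56 and 9.73 in wildtype and at 3.76 and 4.32 in cKO. This was the lowest expressed of the 10, with as few as 27 reads in a library, and had the largest fall, -1.01 (standard error 0.282, limma adjusted p 0.0159). Its standard error was also the largest of the 10, and differences in the size of the fall between genes were not tested.

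Zpbp and Zpbp2 encode the 2 zona pellucida binding proteins, which are needed for compaction of the acrosome and binding to the egg coat. Zpbp was at 88.9 and 111.8 in wildtype and at 76.5 and 73.7 in cKO. The wildtype libraries differed by 22.9 units, more than the gap of 12.4 units between the groups, and the change of -0.40 (standard error 0.138) had a limma adjusted p of 0.0404. Without wildtype 2 it was -0.24 (limma adjusted p 0.273). Zpbp2 was at 123.3 and 140.9 in wildtype and at 96.8 and 94.3 in cKO. Here the gap of 26.5 units was larger than the distance of 17.7 between the wildtype libraries, and the change was -0.46 (standard error 0.124, limma adjusted p 0.013).

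Spaca1 and Spaca4 encode proteins of the acrosomal membranes. Spaca1, which is needed for the normal shape of the acrosome, was at 100.8 and 86.0 in wildtype and at 75.5 and 62.5 in cKO. The wildtype libraries lay 14.8 units apart, more than the 10.5 units between the groups, and the change was -0.43 (standard error 0.141, limma adjusted p 0.0328). Before TMM scaling, Spaca1 had 548 of 6886254 reads in wildtype 2 and 542 of 6710657 in cKO 1. Spaca4, a lipid-anchored protein that takes part in binding to the egg coat, was at 167.4 and 163.1 in wildtype and at 126.8 and 134.7 in cKO. It had the smallest fall of the 10, -0.34 (standard error 0.116), and the highest limma adjusted p, 0.0428. It was at -0.12 after quantile normalization (limma adjusted p 0.456), and its call was lost whichever library was left out.

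Izumo1 encodes the sperm surface protein that binds the egg receptor JUNO before the membranes fuse. It was at 61.6 and 55.7 in wildtype and at 34.8 and 38.8 in cKO. The gap of 17.0 units between the groups was larger than the 5.91 units between the wildtype libraries and the 3.93 between the cKO libraries. The change was -0.66 on the log2 scale (standard error 0.145, limma adjusted p 0.00429), close to that of Acrv1.

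Compared per kilobase of exon in GENCODE M21 (GRCm38), the order of the 10 genes was the same in both groups. Spaca4, a gene of 1 exon block and 707 exon bases, led at 233.7 TMM-scaled CPM per kilobase in wildtype and 184.9 in cKO. Acr followed at 150.7 and 114.6, then Acrbp at 106.8 and 80.9. Spaca7 was lowest at 9.34 and 4.13, below Izumo1 at 19.6 and 12.3. No 2 neighbours in this order had overlapping values in the wildtype libraries, although Zpbp, at 20.9 in its lower library, and Izumo1, at 20.6 in its higher one, nearly met.

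Some gene models overlap, and whether the counting used the strand is not given in the sources used here. Izumo1 (chr7:45621811-45628823, plus strand) shares 654 exon bases with Rasip1 on the same strand, which was at 7.02 and 7.06 in wildtype and at 6.83 and 8.64 in cKO. Zpbp (chr11:11279626-11462408, minus strand) shares 223 exon bases with Spata48 on the opposite strand, at 49.1 and 40.7 in wildtype and at 30.4 and 25.7 in cKO. Spaca7 (chr8:12573029-12600744, plus strand) shares 132 exon bases with D630011A20Rik on the opposite strand, at 4.11 and 3.61 in wildtype and at 1.11 and 1.27 in cKO. Acrbp shares 975 exon bases with Gm44597, which was at 2.40 or less in every library, and 90 with the antisense gene 4930557K07Rik, at 5.49 or less. The values of these 4 genes are uncertain to the extent that reads were split or dropped there.

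The number of the 10 genes called differed between methods. edgeR's quasi-likelihood test on reads recovered from the values called all 10 lower (12.8% of all genes tested), and DESeq2 called 8 (12.9%), losing Spaca3 (DESeq2 adjusted p 0.0838) and Zpbp (DESeq2 adjusted p 0.0502). The authors' deposited table lists all 10 as lower, with log2 fold changes between -1.17 and -0.34 and FDR between 2.13e-05 and 0.0354, where 13.6% of its genes are lower at this FDR. Without limma's mean-variance trend Spaca7 was called and the other 9 were not (2.3% of all genes tested were called lower), and after quantile normalization 4 were (Acrv1, Spaca3, Spaca7 and Izumo1, against 11.7%). With 1 library left out, 8 were called without wildtype 1 (13.3% of all genes), 5 without wildtype 2 (10.3%), 3 without cKO 1 (7.31%) and 4 without cKO 2 (9.49%). Acrv1 and Izumo1 kept their calls in all 4 of these fits. Acr, Acrbp, Spaca1, Spaca3 and Spaca7 kept theirs in 2, Zpbp and Zpbp2 in 1, and Spaca4 in 0 (limma adjusted p between 0.0598 and 0.281). The log2 fold change stayed below 0 for all 10 in each of the 4.

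Other acrosome genes were read from 3 lists of 39 measured genes, of which 25 were called lower, 0 higher and 14 were not called by limma. At an unadjusted p under 0.05 the counts were 27 lower and 1 higher, and 0 were called higher by edgeR or DESeq2. Their median change was -0.54. The count called lower was 16 without cKO 1, 16 after quantile normalization and 5 without the variance trend. The list of other acrosome enzymes and contents had 11 of 15 genes called lower and a median of -0.59, with 8 called after quantile normalization and 4 without the variance trend. Its largest changes were in Pkdrej, a polycystin-related receptor of the acrosome region (-1.04, limma adjusted p 0.000222), and in Zp3r, an acrosomal matrix protein (-0.89, limma adjusted p 0.00132). Adam1b (-0.85), Lyzl4 (-0.82) and the hyaluronidase Hyal5 (-0.63) fell as well, the highest limma adjusted p of these being 0.00279. Spesp1 (-0.44, limma adjusted p 0.0127), Adam3 (-0.52, limma adjusted p 0.0108) and Pcsk4 (-0.43, limma adjusted p 0.0336) also passed, but Pcsk4 was at -0.23 without cKO 1 (limma adjusted p 0.425). Crisp2, at 925 ± 42.4 in wildtype and 752 ± 47.1 in cKO (SD, n = 2 each), did not pass (-0.30, limma adjusted p 0.0774).

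Of the genes for building the acrosome, 8 of 15 were called lower, with a median of -0.40. The count was 4 without cKO 1, 3 after quantile normalization and 1 without the variance trend. Actl7a, an actin-related protein of the perinuclear theca that anchors the acrosome to the nucleus, was at 748 ± 6.23 in wildtype and 437 ± 15.1 in cKO (SD, n = 2 each), a change of -0.77 (limma adjusted p 0.000371). Cylc2 (-0.71), Spata16 (-0.66), Actl7b (-0.61), Actl9 (-0.61), Fam209 (-0.54), Tmf1 (-0.52) and Dpy19l2 (-0.40, a protein of the inner nuclear membrane below the acrosome) were also lower, the highest limma adjusted p being 0.0266 for Dpy19l2. The genes not called included Gopc (-0.045) and Pick1 (-0.064), which act in Golgi traffic, and Agfg1 (-0.16) and Csnk2a2 (-0.093). Agfg1 was at -0.32 without cKO 1 and at 0.0014 without cKO 2. Csnk2a2 was at -0.16 without wildtype 1 and at -0.022 without wildtype 2. Vps54, another gene of Golgi traffic, was higher in both cKO libraries, at 16.3 and 16.2 in wildtype and at 24.2 and 21.2 in cKO, and did not pass (0.46, limma adjusted p 0.0826).

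Of 9 other fusion factors in the table, 6 were called lower, with a median of -0.63, and 3 were called lower without cKO 1, 5 after quantile normalization and 0 without the variance trend (limma). Izumo2 (-0.83, limma adjusted p 0.0224) and Izumo3 (-0.74, limma adjusted p 0.00175) fell with Izumo1, but Izumo2 was at -0.55 without wildtype 1 (limma adjusted p 0.118) and at -0.44 without cKO 2 (limma adjusted p 0.174). Izumo4 did not pass (0.051, limma adjusted p 0.815). Tmem81, a sperm protein of the fusion complex with Izumo1, changed by -0.63 (limma adjusted p 0.00755). Spaca6, another protein of that complex, was at 43.0 and 32.5 in wildtype and at 42.6 and 39.8 in cKO (0.14, limma adjusted p 0.571). Dcst1 (-0.60), Dcst2 (-0.64) and Llcfc1 (-0.45) were lower, the highest limma adjusted p being 0.016 for Dcst2. The difference between Spaca6 and its partners was not tested.

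**Figure D2:**
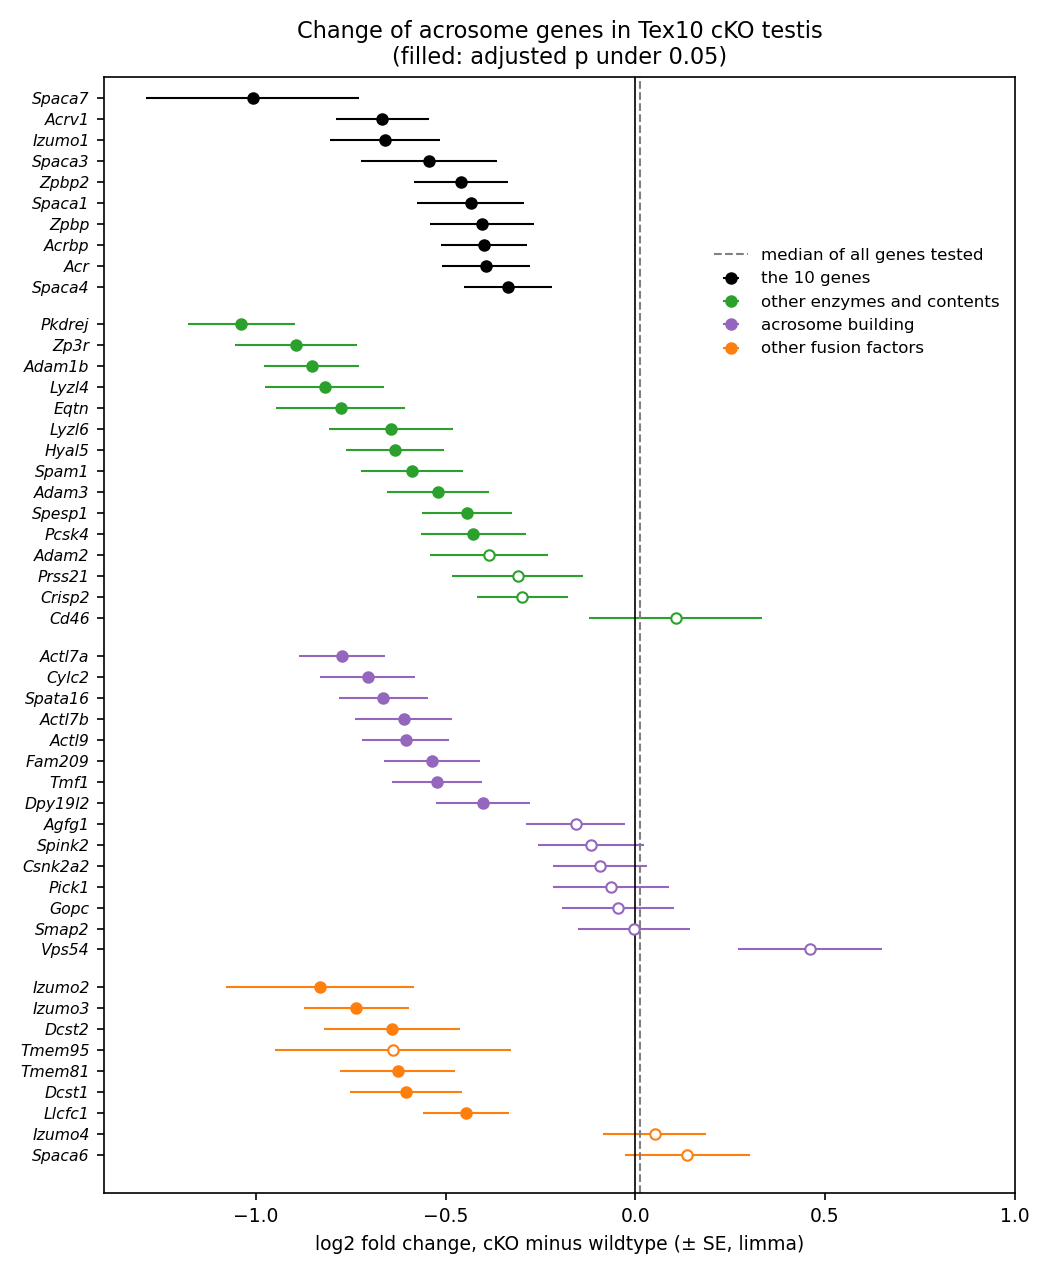
Log2 fold change, cKO minus wildtype, with its limma standard error, for the 10 genes (black) and the genes of the other enzymes and contents (green), acrosome building (purple) and other fusion factor (orange) lists. Filled points passed an adjusted p of 0.05, and the dashed line is the median of all genes tested at 0.01. All 10 black points and all 25 filled points of the other lists lie left of it.

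Of the regulators of the spermatid programme, 3 of 9 were called lower, with a median of -0.29. At an unadjusted limma p under 0.05, 5 were lower and 0 higher, and edgeR and DESeq2 each called 3 lower and 0 higher. After quantile normalization 1 was called lower, and without the variance trend 0 were (limma). Rfx2 was at 340.0 and 389.9 in wildtype and at 248.5 and 281.7 in cKO, a change of -0.46 (limma adjusted p 0.0123). Sox30, a transcription factor of late meiotic and early haploid cells, changed by -0.62 (limma adjusted p 0.00373) and Fhl5, a partner of CREM, by -0.63 (limma adjusted p 0.00721). Crem itself was at 82.2 and 80.2 in wildtype and at 63.9 and 70.3 in cKO (-0.27, limma adjusted p 0.128). Taf7l went the other way, at 19.7 and 19.3 in wildtype and at 24.1 and 27.4 in cKO. Its change of 0.38 narrowly missed the unadjusted threshold (limma p 0.0502, limma adjusted p 0.124). Tdrd5 (-0.098) and Ybx2 (-0.15) changed little and were not called.

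Transcripts of later spermatids fell beside the 10 genes, with 11 of 12 called lower and a median of -0.59. The count was 5 without cKO 1, 2 after quantile normalization and 1 without the variance trend. They include Akap4 (-0.84, limma adjusted p 0.000574), a scaffold of the sperm tail, Hspa1l (-0.73), Spem1 (-0.72) and the sperm glycolytic enzyme Gapdhs (-0.70). Within each library, the summed value of the 10 genes divided by that of the late spermatid list was 0.050 and 0.0463 in wildtype and 0.0517 and 0.0521 in cKO. The ratio was higher in both cKO libraries than in both wildtype libraries. The gap between the nearest libraries of the groups was smaller than the distance between the wildtype libraries. A few genes weigh heavily in the late spermatid sum, which was 26174 and 29206 in wildtype. Tnp2 gave 7583 and 7971 of it and Prm2 6221 and 6383. Tnp1 and Prm1 differed most between the wildtype libraries, at 1127 and 1910 and at 1833 and 2921. When the libraries were rescaled so that the late spermatid list was level, a setting chosen after the data were seen, the median of the 10 genes was 0.16 and that of all genes tested moved from 0.01 to 0.55. By limma 0 of the 10 were then called lower (also 0 lower at an unadjusted p under 0.05, where Spaca4 was higher at 0.27). Since 0.644% of all genes tested were called lower with this scaling, the count says little of the 10 genes. The cKO to wildtype ratio of summed values was 0.732 for the 10 genes and 0.677 for the late spermatid list.

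The spermatocyte list had 2 of 12 genes called lower and 2 higher, near the shares of 13.1% and 16.1% over all genes tested, and a median of 0.088, which was -0.012 without cKO 2 and 0.22 without cKO 1. These calls depended on single libraries, with 0 lower and 0 higher in limma without cKO 2, and 1 lower and 0 higher without cKO 1. DESeq2 called 2 lower and 0 higher, and limma without the variance trend called 0 lower and 1 higher. Pgk2 (-0.51, limma adjusted p 0.00794) and Ccna1 (-0.61, limma adjusted p 0.00566) were called lower, and Dmc1 (0.80, limma adjusted p 0.0263) and Hormad1 (0.60, limma adjusted p 0.034) higher. After quantile normalization Pgk2 turned to 0.039, and Dmc1 and Hormad1 were not called. The other 8 genes were not called and ran from -0.27 for Hspa2 to 0.40 for Meiob. When the libraries were rescaled to make the spermatocyte list level, also chosen after the data were seen, all 10 acrosome genes were called lower with a median of -0.52 (14.3% of all genes tested were called lower). The spermatogonia list had 7 of 12 genes called higher and a median of 0.62, led by Kit (1.08), Stra8 (1.08), Dmrt1 (0.95) and Etv5 (0.78). Stra8 had few reads, 9 and 13 in wildtype and 37 and 36 in cKO. Whether these transcripts came from spermatogonia alone was not tested. Gfra1 of this list was at 16.1 and 13.8 in wildtype and at 9.05 and 12.7 in cKO and did not pass (-0.44, limma adjusted p 0.182). The count called higher was 3 with DESeq2, and with limma it was 2 without cKO 1 and 2 without the variance trend. By limma 0 were lower (also 0 at an unadjusted p under 0.05, and 0 by edgeR and DESeq2).

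Most somatic cell markers were higher in cKO. All 10 Sertoli cell genes were called higher, with a median of 1.47, and their summed value was between 529.4 and 584.7 in wildtype and between 1497 and 1768 in cKO. Clu was at 238 ± 19.8 in wildtype and 752 ± 82.5 in cKO (SD, n = 2 each). The log2 fold changes of Inha, Amh and Fshr were 1.61, 1.78 and 1.80. Fshr had few reads, 9 and 7 in wildtype and 72 and 38 in cKO. The 7 Leydig cell genes were all called higher, with a median of 1.72, led by Lhcgr (2.31), Insl3 (2.10), Hsd3b1 (1.86) and Hsd3b6 (1.72), and their sum was between 289.6 and 392.7 in wildtype and between 687.6 and 1243 in cKO. Lhcgr had few reads, 4 and 6 in wildtype and 82 and 43 in cKO. The groups overlapped for Star, at 82.0 and 52.3 in wildtype and at 184.7 and 78.3 in cKO. Without cKO 1 the Leydig median and Hsd3b6 were both at 0.97, and without wildtype 2 Insl3 was at 1.29. DESeq2 called 5 Leydig genes higher. Of 6 macrophage genes tested 3 were higher (Lyz2, C1qa and Csf1r), as were 2 of 4 peritubular muscle genes (Acta2 and Myh11). Of the peritubular genes, DESeq2 called 1 higher, and limma called 1 after quantile normalization. Cx3cr1, another macrophage gene, was at 6.51 and 6.12 in wildtype and at 5.85 and 1.27 in cKO and did not pass (-0.89, limma adjusted p 0.134), and 1 macrophage gene was called lower without cKO 1. The macrophage sum was between 54.0 and 62.1 in wildtype and between 87.8 and 123.6 in cKO, and the peritubular sum between 34.1 and 40.2 and between 59.5 and 73.6. Genes called higher made up 16.1% of all genes tested. None of the markers of these 4 cell types was at 0 in any library. The summed value of the 10 acrosome genes was 2.24 and 2.55 times that of the Sertoli list in wildtype, and 0.538 and 0.665 times in cKO. Without the variance trend 10 Sertoli, 2 Leydig, 1 macrophage and 1 peritubular muscle genes were called higher. The part of these cell types in the fall of the acrosome genes was not tested.

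Of 2 red blood cell genes in the table, Hbb-bs and Alas2, 0 were called by limma (also 0 at an unadjusted p under 0.05, and 0 by edgeR and DESeq2). Of 6 genes of the epididymal epithelium, 1 was in the table, Rnase10, and it was lower in cKO (-0.94, limma adjusted p 0.0202). This call was lost without wildtype 1 and without cKO 1. It was also lost without the variance trend, where the log2 fold change was still -0.94.

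**Figure D3:**
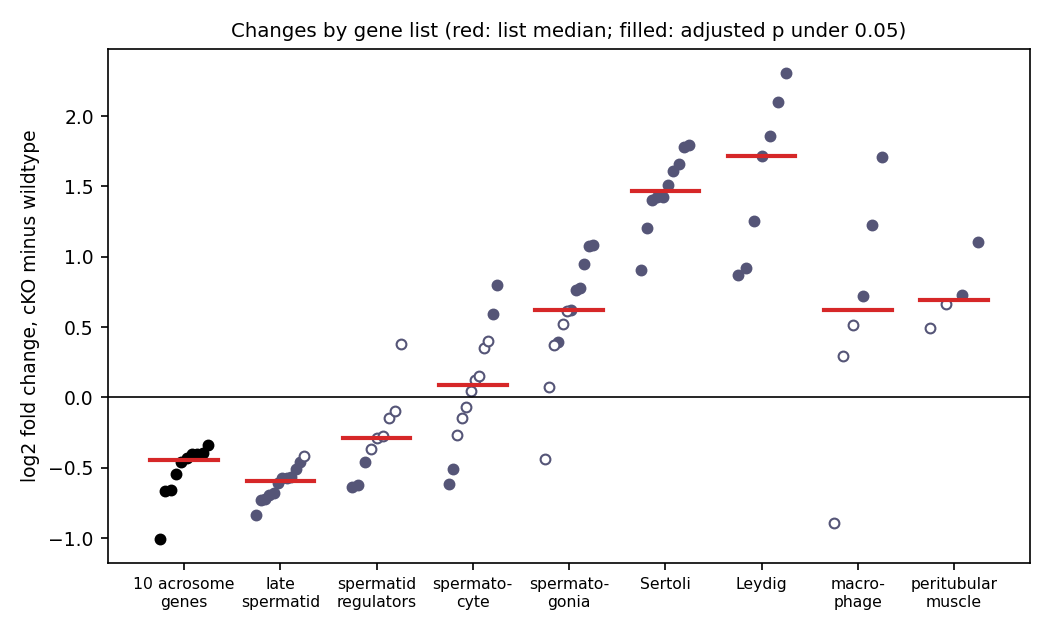
Log2 fold change, cKO minus wildtype, of each tested gene in 9 lists, with a red bar at the list median and filled points for an adjusted p of 0.05. The 10 acrosome genes (median -0.45) and the late spermatid list (median -0.59) lie below 0, the spermatocyte list is spread around 0.088 and the Sertoli (1.47) and Leydig (1.72) lists lie above 0.

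**Figure D4:**
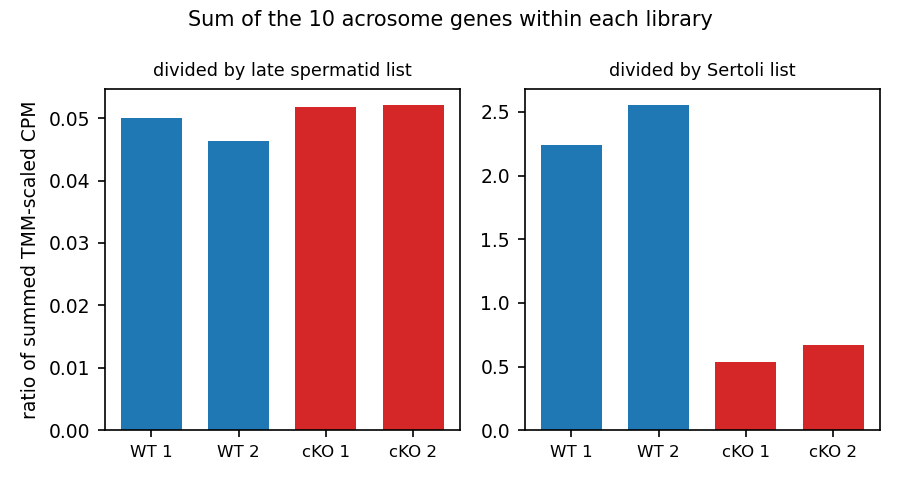
Summed TMM-scaled CPM of the 10 acrosome genes divided by the sum of the late spermatid or the Sertoli list in each of the 4 testis libraries (bars from 0). The first ratio is 0.050 and 0.0463 in wildtype and 0.0517 and 0.0521 in cKO, and the second 2.24 and 2.55 against 0.538 and 0.665.

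The genes whose 4 testis values were most like the median course of the 10 genes were Fam160a2, Gm6568, Gpr160, Dnah14 and Fam53c. Likeness was the root mean square difference of centred log2 values over 4 libraries, from 0.00891 for Fam160a2 to 0.0139 for Fam53c. Among 11302 candidate genes, 1254 lay within 0.1, so this profile over 4 libraries was common. Among the 10 genes themselves, Acrbp (0.0451) and Zpbp2 (0.0455) were nearest to the shared course and Spaca7 (0.272) farthest.

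In cultured cells most of the 10 genes were at or near 0. Over the 22 EpiLC and PGCLC libraries, Spaca4 was at 0 in 21, Spaca3 in 20, Spaca7 in 19, Acrv1 in 18, Spaca1 in 17 and both Acr and Zpbp2 in 12. The highest value of any of these 7 was 0.901, for Zpbp2. Acrbp was detected in all 22, at between 1.09 and 6.46, with a median of 4.50. Zpbp (median 0.708, highest 2.81) and Izumo1 (median 0.774, highest 2.67) were each at 0 in 1 library. The testis and cell tables were normalized separately, so these levels are set beside those of testis only as a rough scale.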

How the data were processed

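Gene values of 4 testis libraries (2 wildtype, 2 Tex10 cKO) and of 22 cultured cell libraries were used. The deposited values are a signal that the authors scaled by TMM, per the names of the tables. The submitters' processing notes name Bowtie2 2.3.4.3, SAMtools 1.9, HTSeq 0.11.2, edgeR 3.26.8 and the build mm10, without roles. The authors' deposited table also holds log2 fold changes with p-values and FDR. Their test is not given in the sources used here. In every testis library 100.0% of values were whole multiples of 1 step (tolerance 0.02 of a read), which gave reads for the edgeR 4.0.16 and DESeq2 1.42.0 alternatives.

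The main test was limma 3.58.1 in R 4.3.3, with a mean-variance trend, on log2(value + 1) for the 20658 testis genes whose mean value reached 1. The Benjamini-Hochberg adjustment ran over these genes, and an adjusted p under 0.05 was a call. A fold change on this scale understates that of low genes. The procedure was also tried on simulated data, but the outcome is not given here and no result rests on it. A floor of 3 reads was between 0.381 and 0.514 units in testis, for counting error only, since the labels describe no molecular identifiers.

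The 10 genes and the gene lists were chosen with earlier results of these data known. All 10 genes are named. From each other list up to 4 called genes with the largest changes are named, and from the 3 acrosome lists also those with a wildtype mean of at least 100. Other genes of these lists (Spaca6, Izumo4, Dcst1, Gopc, Pick1, Vps54, Cx3cr1, Tnp1, Tnp2, Prm1, Prm2, Crem, Taf7l, Tdrd5, Ybx2 and Star among them) were named after their values were seen. Fimp was not matched in the table. Protein sequences were not used here.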

Additional observations from a re-analysis of the deposited data

How the results depend on the processing

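With a pseudocount of 0.1, no filter on low values, a filter at a mean of 5, median-ratio scaling, edgeR or the replicate block, all 10 genes stayed called lower. Same-numbered libraries share only a number (2 pairs, with a correlation of their deviations of 0.116), and the replicate block gave 7185 calls over all genes against 6016. Of the 10 genes, 1 was called without the variance trend, 4 after quantile normalization, 1 with an added absolute log2 fold change of 1, 0 after scaling to the late spermatid list, and from 3 to 8 with 1 library left out, when a lone library was assumed to vary like the other group. Calls over all genes numbered 2135 without the trend (475 lower), 1978 with the added fold threshold (272 lower) and from 3148 to 6085 (from 1510 to 2751 lower) with 1 library left out, fewest without cKO 1. The median of the 10 genes was -0.31 after quantile normalization, from -0.56 to -0.41 with 1 library left out, -0.52 after scaling to the spermatocyte list and 0.16 after scaling to the late spermatid list, which moved the median of all genes from 0.01 to 0.55. The cause of these changes was not tested.

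Without the trend the fold changes were those of the main test, and the calls lost were Acr (-0.39), Acrbp (-0.40), Acrv1 (-0.67), Spaca1 (-0.43), Spaca3 (-0.54), Spaca4 (-0.34), Zpbp (-0.40), Zpbp2 (-0.46) and Izumo1 (-0.66), with limma adjusted p between 0.0621 and 0.198. Quantile normalization lost Acr (-0.11), Acrbp (-0.041), Spaca1 (-0.33), Spaca4 (-0.12), Zpbp (-0.29) and Zpbp2 (-0.30). DESeq2 lost Spaca3 (-0.59) and Zpbp (-0.45). Scaling to the late spermatid list, which raised most genes, gave values above 0 for Acr (0.22), Acrbp (0.21), Spaca1 (0.17), Spaca3 (0.046), Spaca4 (0.27), Zpbp (0.20) and Zpbp2 (0.15), and Acrv1 (-0.058), Spaca7 (-0.48) and Izumo1 (-0.058) were not called. With 1 library left out the log2 fold change ran from -0.47 to -0.32 for Acr, from -0.44 to -0.36 for Acrbp, from -0.76 to -0.57 for Acrv1, from -0.57 to -0.30 for Spaca1, from -0.66 to -0.43 for Spaca3, from -0.38 to -0.29 for Spaca4, from -1.09 to -0.93 for Spaca7, from -0.57 to -0.24 for Zpbp, from -0.56 to -0.36 for Zpbp2 and from -0.73 to -0.58 for Izumo1. Outside the 10 genes, Pgk2 turned to 0.039 after quantile normalization. Without cKO 2 the spermatocyte median turned to -0.012 and Agfg1, which was not called, to 0.0014. Of 51 other called genes (Tex10 and those named by rule from the lists), 34 lost their call without the trend, 18 after quantile normalization, 5 with DESeq2, 18 without cKO 1, 10 without cKO 2, and 4 each without wildtype 1 or wildtype 2.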
